A study of Mus musculus with 9 samples.

Results

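The Mir290 cluster is a group of microRNA genes characteristic of mouse embryonic stem cells (ESCs). Its members were taken as every row of the expression table whose gene symbol is Mir290 to Mir295 with or without the letter a or b, which gave 7 hairpins (Mir290, Mir291a, Mir291b, Mir292, Mir293, Mir294 and Mir295) of 24132 rows. They were followed in 9 RIPiT-seq libraries from 3 ESC lines of a 129/B6 F1 hybrid strain, grown without feeder cells in the presence of LIF. RIPiT is a tandem immunoprecipitation (IP), here through FLAG and then HA, of RNA fixed to a tagged protein with formaldehyde. The tagged protein was WDR5, a subunit of the MLL complex that methylates histone H3 at lysine 4. All 3 lines had been infected with a lentivirus, which carried no tagged WDR5 (empty vector), wild type WDR5 with both tags (WT), or tagged F266A, a point mutant studied for its loss of RNA binding, whose construct is also truncated at the N terminus. Each line contributed 2 IP libraries and 1 input library. The lines are isolated clones, and those with a tagged protein were chosen for its near endogenous level, so clone and construct cannot be told apart, and nothing in the labels says that the 2 IPs of a line came from separate cultures, so p-values measure the spread between these libraries only.

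MicroRNA genes are transcribed as long primary transcripts. Drosha and Dgcr8 cut hairpins out of these in the nucleus, Dicer1 trims each hairpin to a short duplex, and an Argonaute protein keeps 1 strand as the mature microRNA. The seed, bases 2 to 8 of the mature strand, selects the mRNAs that are silenced. In ESCs the cluster is known for promoting the rapid G1 to S transition through repression of cell cycle inhibitors, and its promoter is bound by Pou5f1, Sox2 and Nanog.

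The mature sequences are shown here because their seeds are what the members share. They come from the RefSeq annotation of GRCm38.p6, which held 13 mature sequences and 6 hairpins of the 7 members, and the capitals mark the seed. The 3' strands of Mir291a, Mir294 and Mir295 carried the same seed, which 5 of the 1738 mature sequences in that annotation (0.288%) carried in all:
mmu-miR-291a-3p: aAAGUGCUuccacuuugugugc
mmu-miR-294-3p: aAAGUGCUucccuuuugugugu
mmu-miR-295-3p: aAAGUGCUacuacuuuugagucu
Other seeds were listed for the 3' strands of Mir290, Mir291b and Mir293:
mmu-miR-290a-3p: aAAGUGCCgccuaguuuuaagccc
mmu-miR-291b-3p: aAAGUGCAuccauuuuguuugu
mmu-miR-293-3p: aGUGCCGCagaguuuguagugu
On the 5' strands, Mir290, Mir292 and Mir293 had a seed in common that no other mature sequence of that annotation carried (3 of 1738, 0.173%):
mmu-miR-290a-5p: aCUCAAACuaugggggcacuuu
mmu-miR-292a-5p: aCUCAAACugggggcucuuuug
mmu-miR-293-5p: aCUCAAACugugugacauuuug

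The reads were 50 bases long and the mature strands 22 to 24 bases. A read over these rows therefore came from a hairpin or from a longer RNA that contains it, and no value here measures a mature microRNA. The hairpins with the highest level and with the only difference between lines, Mir292 and Mir294, are shown with their mature strands in capitals (for Mir292, the 5' strand only):
Mir292 hairpin: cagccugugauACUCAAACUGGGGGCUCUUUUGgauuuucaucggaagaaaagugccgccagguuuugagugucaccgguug
Mir294 hairpin: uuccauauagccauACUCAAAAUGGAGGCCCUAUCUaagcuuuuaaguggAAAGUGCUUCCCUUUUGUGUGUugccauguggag
In mm9, the build to which the reads were mapped, all 7 hairpins lie on the plus strand of chromosome 7 within 2216 bases. Mir290 is at chr7:3218627-3218709, Mir291a at chr7:3218920-3219001, Mir292 at chr7:3219190-3219271 and Mir291b at chr7:3219483-3219561. Mir293 follows at chr7:3220344-3220423, Mir294 at chr7:3220642-3220725 and Mir295 at chr7:3220774-3220842, with only 48 bases between the last 2 hairpins. The table also holds D7Ertd143e, a noncoding transcript of 2232 bases in RefSeq, which has 6 of the hairpins inside it. Only Mir290 lies outside, from base -158 to base -76 counted from the annotated start of that transcript. The 300 bases around this start in GRCm38.p6 (chr7:3218534-3218833, plus strand) are given with the Mir290 hairpin in capitals, since Mir290 is the member that was nearly without reads:
D7Ertd143e start: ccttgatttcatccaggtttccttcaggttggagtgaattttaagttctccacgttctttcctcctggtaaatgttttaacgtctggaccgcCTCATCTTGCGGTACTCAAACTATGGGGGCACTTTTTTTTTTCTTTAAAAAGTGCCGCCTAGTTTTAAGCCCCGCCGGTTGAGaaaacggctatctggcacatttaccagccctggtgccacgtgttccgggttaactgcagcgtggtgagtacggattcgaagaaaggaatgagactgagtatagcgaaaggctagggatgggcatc

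Counting was not stated to use strand. RefSeq places Mir290b and Mir292b on the minus strand opposite Mir290 and Mir292, and predicted models of Nlrp12, an antisense neighbour, run over the cluster. Reads from these cannot be told apart from reads of the members, although the Nlrp12 row stayed between 0.124 and 0.332 RPKM (reads divided by the length of the transcript and by the mapped reads of the library, thus a level per length). Reads of 50 bases that overlap a hairpin had a single match in mm9 at 100% of positions for Mir290, Mir291a, Mir291b, Mir292 and Mir293, 91.0% for Mir294 and 90.7% for Mir295. No member had the same values as another row, whereas 676 of the 20431 rows above 0 did.

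The values of the members rest on few reads. Depth, inferred from the step between low values, was 13900000 to 52100000 reads a library. The step was chosen on short rows, members included, for the share that it made whole multiples, and this share was 57.7 to 64.5% a library. Each of the 63 member values corresponded to a whole number of covered bases, within 0.03 of a base. These came to 20020 bases over the 9 libraries, or 400.4 reads of 50 bases, and Mir292 held 48.4% of them. Of the 63 values, 7 were 0, 16 were above 0 with less than 3 reads' worth of bases and 53 had less than 10 reads' worth. Only 1 of those 53 belonged to Mir292, in the second empty vector IP. Since a read can cover part of a hairpin, the number of reads that touched it can be higher than these read equivalents.

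**Figure D1:**
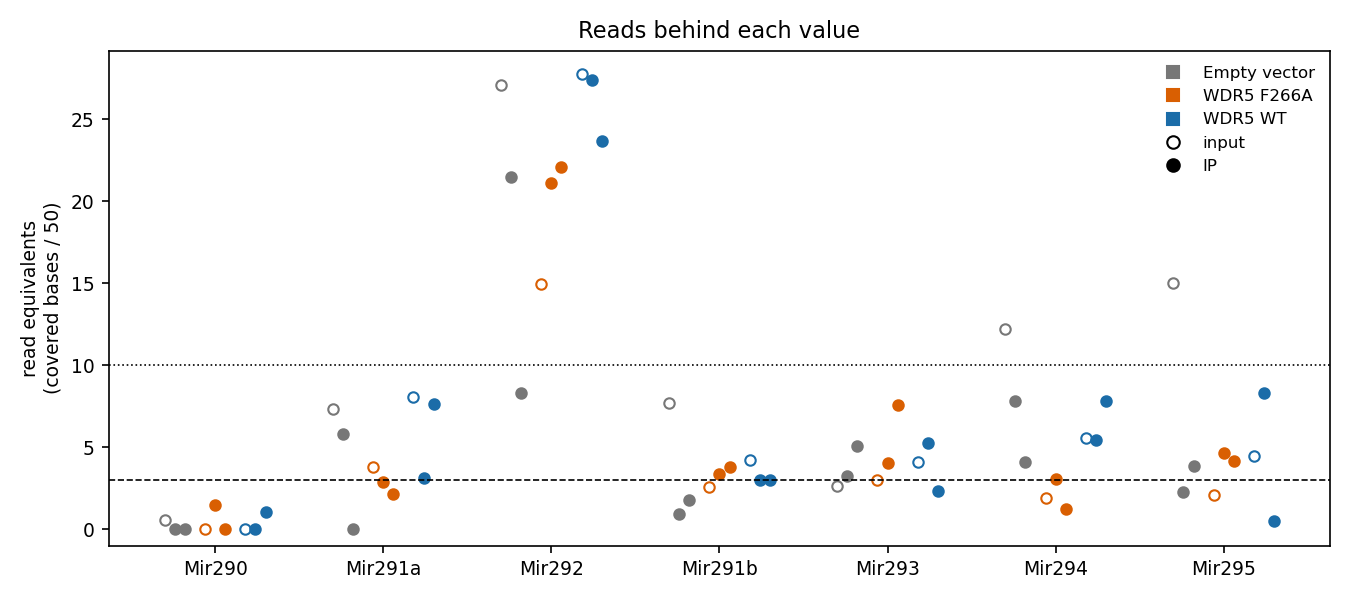
Read equivalents (covered bases divided by 50, y axis) behind each of the 63 values, by hairpin (x axis), line (colour) and fraction (open, input; filled, IP). The dashed and dotted lines mark 3 and 10 reads, and Mir292 is the only hairpin with most of its points above 10.

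Mir292, whose mature strands come from the third hairpin of the cluster, had the highest RPKM of the 7 members in 9 of 9 libraries. It ranked 22 by mean RPKM among the 798 microRNA rows, of which 563 were above 0 in at least 1 library. The empty vector input stood at 6.27 RPKM, and its IPs reached 9.96 and 7.18. For F266A the input was at 4.63 RPKM and the pair of IPs at 11.98 and 10.5, and for WT the input was at 7.54 and the IPs at 11.7 and 10.4. In each line both IPs lay above the input, and the lowest IP of all, the second of the empty vector, was below the WT input.

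Mir293, which lies beyond the widest gap of the cluster (782 bases), also had higher values in most IPs. From an empty vector input of 0.625 RPKM the IPs went to 1.55 and 4.52, and from an F266A input of 0.957 RPKM to 2.34 and 3.70. The WT input had 1.13 RPKM and the WT IPs 2.29 and 1.06, so that the second WT IP was no higher than the input. The highest and the lowest of the IPs were 4.52 and 1.06 RPKM, and the IPs of the 3 lines overlapped except those of WT and F266A.

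Mir294, 1 of the 3 members with the shared 3' seed, was the member that differed most plainly between lines. With the empty vector, 2.76 RPKM was measured in the input, 3.53 in the first IP and 3.46 in the second. With F266A these were 0.568, 1.71 and 0.585 RPKM, and with WT 1.48, 2.27 and 3.34 RPKM. The F266A input was the lowest of the 3 inputs, and the F266A IPs were the 2 lowest of the 6 IPs. The 2 F266A IPs held 154 and 63 covered bases of Mir294, against 390 and 205 in the empty vector and 273 and 391 in WT.

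Mir295, with the same 3' seed, was scattered. Input, first IP and second IP gave 4.12, 1.27 and 3.98 RPKM with the empty vector, 0.778, 3.14 and 2.35 RPKM with F266A, and 1.43, 4.198 and 0.270 RPKM with WT. The 2 IPs of WT were thus the highest and the lowest of all 9 values. Mir291a, the third with this seed, gave, in the same order, 1.70, 2.70 and 0 RPKM with the empty vector, 1.18, 1.62 and 1.04 RPKM with F266A, and 2.19, 1.34 and 3.36 RPKM with WT. Its IPs fell on both sides of the input in every line. The 0 in the second empty vector IP came from the shallowest library, where 3 reads, taken as the one-sided 95% limit for a count of 0, would be 2.59 RPKM if each lay wholly inside the hairpin. Reads that cover part of it would give less.

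Mir291b had an empty vector input of 1.85 RPKM with IPs at 0.452 and 1.58, an F266A input of 0.822 RPKM with IPs at 2.002 and 1.87, and a WT input of 1.19 RPKM with IPs at 1.32 and 1.35. It lay below its input in the empty vector IPs and above it in the other 4. Mir290, which gives the cluster its name, was at 0 in 6 of 9 libraries. The other values were 0.133 RPKM for the empty vector input, 0.841 in the first F266A IP and 0.450 in the second WT IP, and these 3 values stood on 29, 75 and 52 bases. Where it was 0, the limit that 3 reads wholly inside the hairpin set was between 0.804 and 2.56 RPKM, and reads that cover part of it would set a lower limit. The level of Mir291b in the same library was above the stated limit in the second F266A IP, the WT input and the first WT IP. It was below in both empty vector IPs and in the F266A input, where a lower limit could change the order. By mean RPKM over the 9 libraries the order was Mir292 (8.90), Mir295 (2.39), Mir294 (2.19), Mir293 (2.02), Mir291a (1.68), Mir291b (1.38) and Mir290 (0.158). The ranges of neighbours in this order overlapped below Mir292, and those of Mir292 and Mir295, its nearest neighbour, did not (lowest Mir292 4.63, highest Mir295 4.198).

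**Figure D2:**
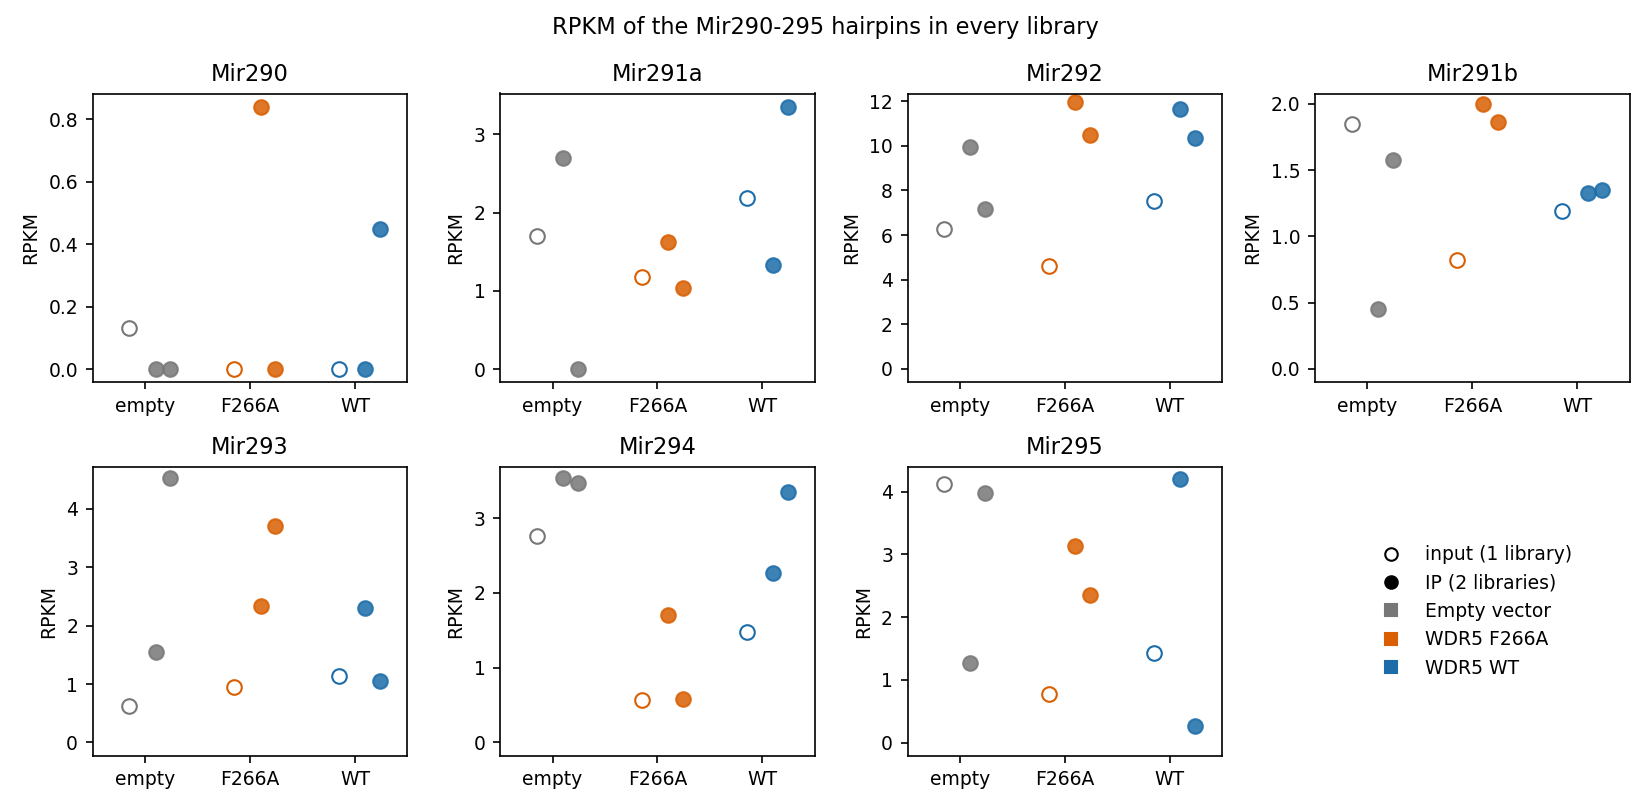
RPKM (y axis, own scale per panel) of each hairpin in the input (open) and the 2 IPs (filled) of each line (x axis). Mir292 lies between 4.63 and 11.98 in all libraries, whereas Mir290 is 0 in 6 of 9.

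The host transcript D7Ertd143e rested on more reads than the hairpins, since its values stood on 6808 to 20953 covered bases. Whether its reads and those of the hairpins came from the same RNA was not tested. The inputs stood at 3.60 (empty vector), 2.54 (F266A) and 3.02 RPKM (WT). The IPs stood at 4.70 and 4.38 RPKM for the empty vector, at 6.13 and 4.27 for F266A and at 4.999 and 4.14 for WT. In each line both IPs were above the input. The 6 hairpins inside it make up 21.3% of its length, and the mean depth over them was 0.545 to 0.816 of that over the other 1756 bases, lower in 9 of 9 libraries. This did not hold for Mir292, over which the depth was 1.57 to 2.43 times that of the other bases of the host, above 1 in 9 of 9 libraries. Of the 45 values of the other 5 hairpins only 1, that of Mir295 in the empty vector input (1.103), was above 1. Whether reads from Mir292b, on the opposite strand, contribute to this depth was not tested.

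**Figure D3:**
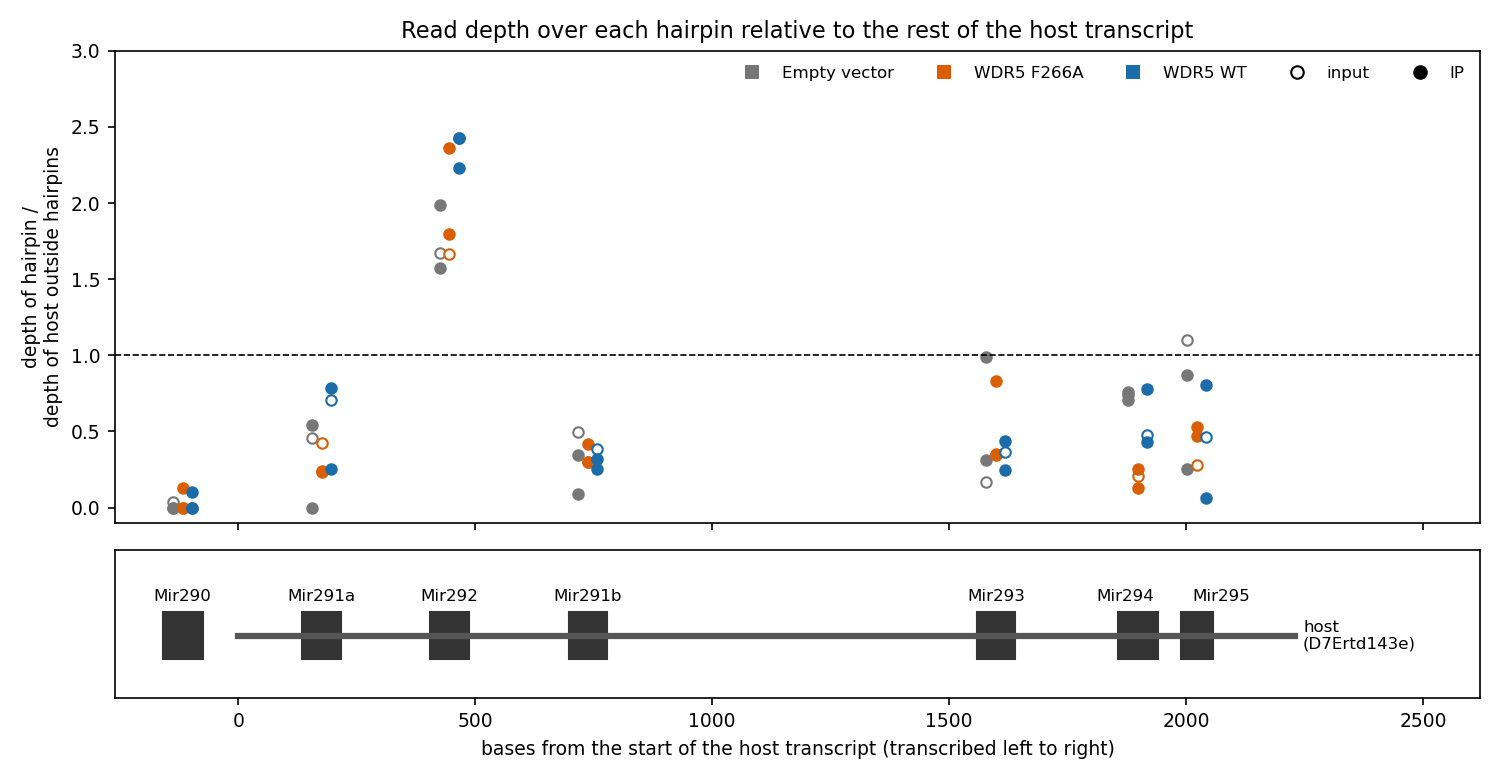
Depth over each hairpin divided by the depth over the part of D7Ertd143e outside the hairpins (upper panel, y axis) and the position of the hairpins (lower panel, boxes) in bases from the start of that transcript (x axis). Mir292 is above the dashed line at equal depth in 9 of 9 libraries, and Mir290, which lies before the start, is at or near 0.

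The summed RPKM of the 7 members was 17.5, 8.94 and 14.97 in the inputs of the empty vector, F266A and WT. In the IPs it was 19.5 and 20.7 for the empty vector, 23.6 and 20.1 for F266A and 23.1 and 20.2 for WT. The IPs therefore differed little between lines (21.2 ± 1.73, SD, n = 6), and the inputs more (13.8 ± 4.39, SD, n = 3), with the F266A input the lowest. The sums of 6 IPs were all above those of 3 inputs, also in the line with no tagged protein.

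IPs were first compared with inputs over the 3 lines, which asks what the purification recovers whichever protein is tagged. Mir290 was too low to be tested (a row had to reach 1 RPKM in at least 2 libraries), and 3 of the other 6 hairpins rose in the IPs. Mir292 was higher by 0.66 ± 0.14 (SE) in log2 (RPKM + 1), with an adjusted p of 0.00338, Mir293 by 0.84 ± 0.26 with an adjusted p of 0.0190, and Mir294 by 0.42 ± 0.16 with an adjusted p of 0.0388. Of the others, Mir295 differed by 0.18 ± 0.44, Mir291b by 0.07 ± 0.22 and Mir291a by -0.14 ± 0.35. D7Ertd143e was higher by 0.51 ± 0.12, with an adjusted p of 0.00536.

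The count of 3 of 6 has to be read against a background of 63.8% of the 9787 genes tested that were higher in the IPs by the same rule. The median of the 6 hairpins was 0.30 and that of all genes 0.30. With each library centred on its median gene, none of the 6 was called (Mir292 then differed by 0.35 with an adjusted p of 0.121), and likewise after quantile normalization, and Mir291b and Mir295 turned to -0.24 and -0.13 with centring. Without the F266A line, an alternative added after the data were seen, 2 were called, Mir292 (0.44) and Mir294 (0.43).

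**Figure D4:**
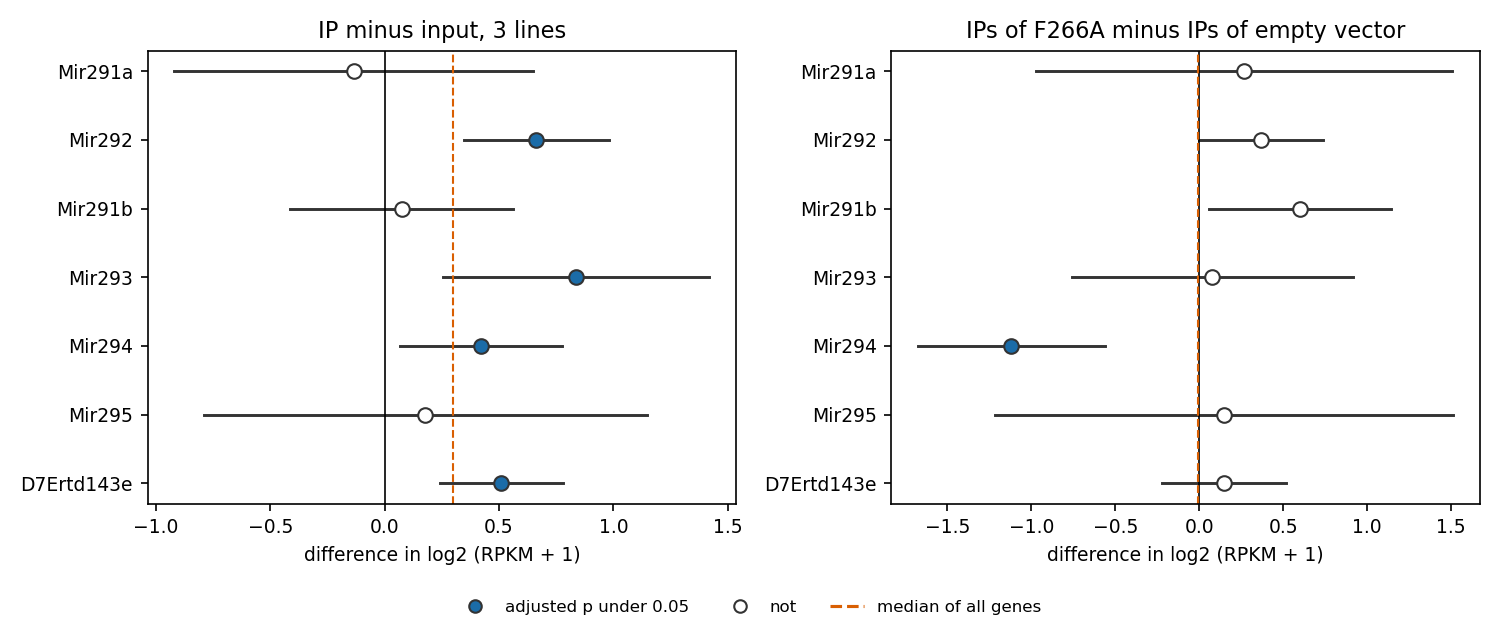
Difference in log2 (RPKM + 1) between IPs and inputs over the 3 lines (left) and between the IPs of F266A and of the empty vector (right), x axis, for the 6 tested hairpins and D7Ertd143e. Points are estimates of the limma fit, bars 95% confidence intervals, filled points have an adjusted p under 0.05, and the dashed line is the median of all 9787 genes (0.30 on the left).

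Enrichment scores, log2 (RPKM + 1) of an IP minus that of the input of its line, show how far the hairpins depended on the line. Of the 42 scores of the 7 members, 29 were above 0, 11 below and 2 at 0, with a range from -1.43 to 1.76. Only Mir292 and Mir294 had 6 scores above 0, as did 66.3% of the genes tested. The scores of Mir292 were 0.57 and 0.41 in WT, 1.21 and 1.03 in F266A and 0.59 and 0.17 in the empty vector. Those of F266A were the highest, and those of WT lay within the range of the empty vector. Mir294 had scores of 0.40 and 0.81 in WT, 0.79 and 0.02 in F266A and 0.27 and 0.25 in the empty vector, and here WT and F266A overlapped.

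The study defined an RNA as bound by WT when both WT scores exceeded 0 and also exceeded each of the 4 control scores. None of the 7 members met this rule (0 of 7, against 4.79% of the 24132 rows), and D7Ertd143e did not meet it either. The closest was Mir294, with a margin of -0.39, since the first WT IP scored 0.40 and the first F266A IP 0.79. The margin of the others ran from -0.64 for Mir291b to -2.16 for Mir295. Mir294 met the rule when the first WT IP or the first F266A IP was left out, but the rule is then looser for every row, and 3354 and 1977 rows met it in place of 1157.

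**Figure D5:**
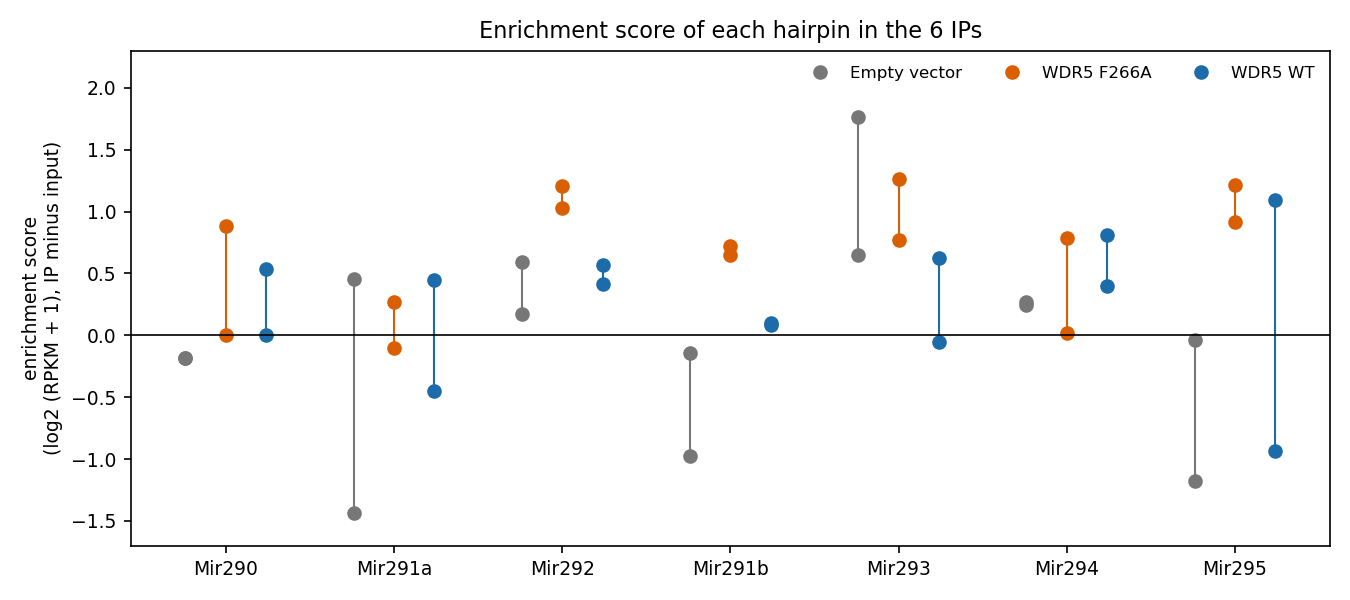
Enrichment score (IP minus input of the same line, log2 (RPKM + 1), y axis) of each hairpin (x axis) in the 2 IPs of each line (colour, joined by a line). No hairpin has both WT scores above 0 and above all 4 control scores.

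In the limma fit, which uses the spread between IPs of a line, the enrichment of WT was set against the mean of its controls, and no hairpin passed (0 of 6 called, and 0 of 6 at an unadjusted p under 0.05; background 0%, with 135 of 9787 genes at an unadjusted p under 0.05). The differences ran from -0.82 ± 0.54 (SE) for Mir293 to 0.28 ± 0.36 for Mir294, and their 95% confidence intervals were wide. That of Mir292, the most precise, was -0.81 to 0.30, and that of Mir295 was -2.20 to 1.90. Against F266A alone, 0 of 6 hairpins and 0% of genes were called (0 and 259 at an unadjusted p under 0.05). Mir292 came nearest with -0.63 ± 0.28, lower in WT than in F266A, and a 95% confidence interval of -1.27 to 0.01. Against the empty vector alone it was again 0 of 6 and 0% (0 and 173 unadjusted), and Mir293 and Mir295 had the largest values, -0.92 ± 0.63 and 0.69 ± 1.03.

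Without the inputs, the IPs of WT and F266A were compared directly, and 0 of 6 hairpins were called while 1.16% of genes were. Mir294, at 0.86 ± 0.24 (SE) higher in WT, was the only one with an unadjusted p under 0.05 (adjusted p = 0.145). Mir292, at -0.03 ± 0.16, had a 95% confidence interval of -0.40 to 0.34, so its difference of -0.63 in enrichment had no counterpart in the IPs, and the inputs behind it were 7.54 RPKM for WT and 4.63 for F266A. The 2 WT IPs lay above both F266A IPs for Mir294 and below them for Mir291b and Mir293, which makes 3 of 6 hairpins with no overlap, against 41.3% of all genes tested. Without the first F266A IP, Mir294 was called (1.25, adjusted p = 0.0273).

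Between the IPs of F266A and those of the empty vector, Mir294 fell by 1.12 ± 0.24 (SE) on the log2 scale with an adjusted p of 0.0437. It was the only hairpin called, so 1 of 6, where 4.55% of genes were called and 3.38% were lower in F266A. The IPs averaged 1.15 ± 0.793 RPKM (SD, n = 2) with F266A and 3.50 ± 0.0505 RPKM (SD, n = 2) with the empty vector. Mir294 was already lower in the F266A line before the IP, at 0.568 RPKM in its input against 2.76 in the empty vector input. Its enrichment over input was not lower on average in F266A, with a mean log2 score of 0.40 against 0.26. The F266A scores, 0.79 and 0.02, lay on both sides of the empty vector scores, 0.27 and 0.25. This difference in enrichment was not tested. The adjusted p rose to 0.0550 and 0.0591 with pseudocounts of 0.1 and 0.01 and to 0.226 with no filter on low values. It was between 0.0101 and 0.257 when 1 IP was left out, with values of -1.50 (without the first F266A IP) to -0.73 (without the second). The smallest numbers of reads that could give the F266A values were 4 and 2, with exact 95% Poisson intervals of 1.09 to 10.2 and 0.242 to 7.22. For the empty vector they were 8 and 5, with intervals of 3.45 to 15.8 and 1.62 to 11.7 (counting error only). The intervals belong to these smallest numbers, and since a read can cover part of a hairpin, those of the true numbers can lie higher. The numbers are not scaled for depth.

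In the same contrast the host transcript and the 5 other hairpins had values above 0. D7Ertd143e was 0.15 ± 0.16, Mir295 0.15 ± 0.59, Mir291a 0.26 ± 0.54, Mir293 0.08 ± 0.36, Mir292 0.37 ± 0.16 and Mir291b 0.60 ± 0.24 (adjusted p from 0.202 for Mir291b to 0.928 for Mir293). The F266A IPs lay above both empty vector IPs for Mir291b and Mir292 and below them for Mir294, so 3 of 6 hairpins did not overlap, against 54.5% of all genes. Cell type markers were also compared between the lines. The summed RPKM of 5 pluripotency markers (Pou5f1, Nanog, Sox2, Zfp42 and Esrrb) was 82.6 in the F266A input and 99.7 and 111 in its IPs, against 108 to 157 in the other 6 libraries. Of these 5 only Pou5f1 was called between the F266A and empty vector IPs, where 4.55% of all genes were called. The summed RPKM of 7 primitive endoderm markers was 11.9, 4.41 and 16.3 in the F266A libraries and 2.78 to 3.98 in the others, with 0 of the 3 that could be tested called. Lama1 made up most of the sum in the other lines, at 2.575 to 3.56 RPKM. In the F266A input, first IP and second IP Lama1 was 5.54, 2.67 and 6.59 RPKM. Gata4 and Dab2 reached 1 RPKM only in the F266A input and second F266A IP, so they passed the filter through that line alone. Fibroblast feeder markers summed to 0.451 to 1.59 in all 9 libraries with Col3a1 at 0. Trophoblast markers summed to 1.76, 2.96 and 2.297 in the F266A libraries and 3.13 to 4.43 in the others, and Tfap2c, the only one of them tested, fell by 0.68 ± 0.13 (adjusted p = 0.0368). Tfap2c, at 1.16 to 3.86 RPKM, made up most of each sum. Cdx2 went the other way, above 0 only in the F266A libraries (0.025, 0.091 and 0.019 RPKM). Hand1 was 0.153, 0.332 and 0.237 RPKM there and 0.021 to 0.192 in the others, and Eomes and Elf5 overlapped. The part of these differences in the Mir294 value was not tested. For bulk samples, fewer cells of a type and less RNA per cell cannot be told apart.

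Comparing the IPs of WT with those of the empty vector, 0 of 6 hairpins and 0% of genes were called (0 and 557 at an unadjusted p under 0.05). The values ran from -0.53 ± 0.36 for Mir293 to 0.73 ± 0.54 for Mir291a, and Mir292 differed by 0.34 ± 0.16 (95% confidence interval -0.03 to 0.71). Mir292 was higher in both WT IPs than in both empty vector IPs and Mir294 lower, so 2 of 6 did not overlap, against 39% of all genes. These comparisons share control libraries with those above and are not independent of them.

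Among the neighbours within 100 kb, AU018091, at chr7:3154665-3169204 on the minus strand, was the gene other than the host whose level followed the line. Input, first IP and second IP had 8.78, 15.2 and 13.0 RPKM with the empty vector, 3.73, 7.39 and 5.80 RPKM with F266A, and 8.57, 11.8 and 9.18 RPKM with WT. The F266A line was the lowest in each fraction, and in the IPs it was lower than the empty vector by a log2 difference of -0.999 ± 0.16 (adjusted p = 0.0210). Myadm, a myeloid-associated membrane protein gene, was between 10.1 and 22.3 RPKM, and Speer9-ps1, a pseudogene, was at most 0.0485.

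The genes that make and use microRNAs were followed as a list of 21, of which 20 were tested. In the IPs 9 of 20 rose and 0 fell, below the background of 63.8%, with a median difference of 0.19 against 0.30 for all genes. The nuclear processing enzymes Drosha (0.46 ± 0.09) and Dgcr8 (0.41 ± 0.09) were among the 9, as were the exporter Xpo5 (0.26 ± 0.09), Dicer1 (0.18 ± 0.07) and its partner Tarbp2 (0.57 ± 0.09). Lin28a, which blocks the processing of let-7 precursors, rose by 0.47 ± 0.09. The main slicing Argonaute Ago2 differed by 0.09 ± 0.07. Between the lines only Tnrc6c, a GW182 protein that works with Argonaute, was called. This was 1 of 20 between F266A and empty vector IPs, where 4.55% of genes were called. It was also 1 of 20 between WT and F266A IPs, where 1.16% of genes were called. Its IPs were 5.52 and 5.99 RPKM in the empty vector, 2.22 and 2.05 in F266A and 4.52 and 6.42 in WT. They were lower in F266A than in the empty vector by a log2 difference of -1.11 ± 0.15 (adjusted p = 0.0130) and higher in WT than in F266A by 1.03 ± 0.15 (adjusted p = 0.0319). The Tnrc6c inputs were 5.515, 1.80 and 5.15 RPKM in the empty vector, F266A and WT, so the level was already lower in F266A before the IP. Its enrichment in WT differed from that in F266A by -0.11 ± 0.26.

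Transcription factors of the cluster's promoter (6 of 6 tested) rose in the IPs for Pou5f1, Nanog, Tcf7l1 and Myc, 4 of 6 against the background of 63.8%, with a median difference of 0.44. Between F266A and the empty vector IPs, Pou5f1 fell by 0.83 ± 0.18 (adjusted p = 0.0434) and Myc rose by 1.15 ± 0.22 (adjusted p = 0.0368), 2 of 6 where 4.55% of genes were called. The inputs of the empty vector, F266A and WT were 55.5, 39.8 and 50.2 RPKM for Pou5f1 and 2.01, 5.19 and 1.26 RPKM for Myc. No factor was called between WT and F266A (0 of 6), where 1.16% of genes were called between the IPs and 0% in enrichment. Of 8 described mRNA targets of the shared seed, 5 were tested. Rhoc rose in the IPs by 0.42 ± 0.10, 1 of 5 and thus below the 63.8% of all genes, and 0 of 5 were called between the IPs of any 2 lines. Of all genes, 4.55% were called for F266A against the empty vector, 1.16% for WT against F266A and 0% for WT against the empty vector. Cdkn1a, the cell cycle inhibitor p21, was 2.60 to 7.72 RPKM over the 9 libraries, and the first and second F266A IPs were the lowest and the highest. Lats2, Dkk1 and Tgfbr2 were too low to be tested. Of 10 other hairpins with the same or a shifted seed (4 of the Mir302 group and 6 of the Mir17 group), 5 were tested and only Mir302b rose in the IPs (0.62 ± 0.21, 1 of 5, again against 63.8%). The Mir302b inputs were 0.527 (empty vector), 0.247 (F266A) and 0.738 RPKM (WT), so it passed the filter of 1 RPKM through IPs only. That filter favours a rise, and no conclusion is drawn from this call. The highest value among the 10 hairpins was 3.005 RPKM, below the lowest of Mir292.

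The rows whose pattern over the 9 libraries was most like the summed level of the cluster were Vrk3, Mrps26, Kri1, Med20 and Atg4d, with Pearson r between 0.968 and 0.978 over log2 (RPKM + 1). The libraries include 6 IPs and 3 inputs, and the median r of all 9781 genes ranked was 0.653. D7Ertd143e, which contains the reads of 6 members, ranked 203 with r = 0.907. Whether the hairpins themselves vary together cannot be told from these values, since few reads stood behind every member but Mir292. Over the 15 pairs of the 6 tested hairpins r ran from -0.707 to 0.546 with a median of 0.138, and with the host it ran from -0.03 for Mir291a to 0.86 for Mir292, the member with the most reads.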

How the data were processed

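RNA was recovered by FLAG and then HA purification from ESCs fixed with 1% formaldehyde for 15 min, amplified with the NuGEN Ovation kit and sequenced in reads of 50 nt. Per the labels, the authors used TopHat 1.1.3 and mm9. They deposited RPKM for RefSeq symbols, computed by a script of their own, and no read counts were used here. Samples were grouped by title. The members and lists were chosen with earlier results of these data known.

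RPKM times length (plus 1 base) was a whole multiple of a library's step for 57.7 to 64.5% of the short rows above 0, and for each of the 63 member values. The step was chosen on these short rows, members included. It gave covered bases and a depth of 13900000 to 52100000 reads. Poisson intervals are exact for the smallest number of reads that could give a value, which can be below the true number. They cover counting error only, as PCR copies are not independent molecules.

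The 9787 genes at 1 RPKM or more in at least 2 of 9 libraries were fitted with limma 3.58.1 in R 4.3.3 (lmFit and eBayes with a trend) on log2 (RPKM + 1), which understates changes of low rows. Each group of line and fraction had a coefficient, or line and fraction for IP against input, and the threshold was a Benjamini-Hochberg adjusted p of 0.05, two-sided. The inputs are single, so the spread came from the IP pairs and the fit. Both procedures were tested on simulated data. Other steps used Python 3.11.15, numpy 2.4.6, pandas 2.3.3 and scipy 1.17.1.

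All members were named, with neighbours within 100 kb, the role lists, cell type markers and the 5 rows with the highest r. Alternatives were pseudocounts of 0.1 and 0.01, no filter, a filter of 5 libraries, quantile normalization, centred libraries, identical rows once, eBayes without trend, a block for the replicate number, a common input, each IP left out and, added later, no F266A line. The Mir291a hairpin and miR-292a-3p were not shown. ChIP-seq, microarray and qPCR data were not analysed here.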

Additional observations from a re-analysis of the deposited data

Results flagged for a closer look

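Mir291b and Mir295 had enrichment scores of opposite sign in different lines, in both IPs of each. Mir291b scored 0.08 and 0.10 in WT and 0.72 and 0.65 in F266A, against -0.97 and -0.14 with the empty vector, so the mean differed from that of the empty vector by 0.652 for WT and 1.246 for F266A. In the limma fit the difference for WT had an SE of 0.41 and did not pass (adjusted p = 1), and those between F266A and the empty vector were not tested. Mir295 scored 1.22 and 0.91 in F266A and -1.18 and -0.04 with the empty vector, a difference of 1.674. The empty vector inputs behind these scores, 1.85 RPKM for Mir291b and 4.12 for Mir295, were the highest of the 3 inputs, and the F266A inputs, 0.822 and 0.778, the lowest.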

How the results depend on the processing

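The 3 hairpins called in IPs against inputs became 1 with no filter on low values, 0 with quantile normalization and 0 with centred libraries, 2 or 3 with an IP left out, and stayed within 1.5 times under the other settings. The call of Mir294 between F266A and empty vector IPs (1 hairpin) was lost, leaving 0, with pseudocounts of 0.1 and 0.01, no filter and quantile normalization. With an IP left out, this call held only without the first F266A IP and was lost without any other. The 0 hairpins called between WT and F266A IPs, and the 0 meeting the rule for enrichment, were 0 or 1 with an IP left out, the 1 being Mir294. The counts of 0 in the 3 comparisons of enrichment and between WT and empty vector IPs were 0 under every alternative run.

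Directions turned as follows. In IPs against inputs, Mir291b was -0.17 with quantile normalization, -0.24 with centring and -0.23 without the F266A line, and Mir295 was -0.078, -0.13 and -0.27 in these. With an IP left out, Mir295 ranged from -0.09 (without the first WT IP) to 0.46 and Mir291a from -0.36 to 0.15 (without the second empty vector IP). In WT against the mean of controls, the mean of the 3 inputs gave -0.026 for Mir291b and 0.16 for Mir292. With an IP left out in that comparison, Mir291a ranged from -0.27 to 0.68, Mir291b from -0.18 to 0.24 and Mir295 from -1.17 to 0.87. D7Ertd143e between F266A and empty vector IPs ranged from -0.071 to 0.37. The cause was not tested.

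Over all genes, 6297 calls in IPs against inputs became 616 with quantile normalization and 880 with centring, where 457 were higher and 423 lower against 6247 and 50. Between F266A and empty vector IPs 445 became 2 with no filter, 242 with quantile normalization and 0 to 480 with an IP left out, and between WT and F266A IPs 114 became 0 with no filter and 0 to 196 with an IP left out. Enrichment of WT against F266A had 0 calls, but 106 with a pseudocount of 0.01, 33 with no filter and 114 with a common input. With a pseudocount of 0.01 the mean score of Mir290 went from 0.44 to 3.21 in F266A and from -0.18 to -3.83 with the empty vector, and that of Mir291a with the empty vector from -0.49 to -3.38.

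Differences between the IPs of a line correlated by 0.01 (empty vector with F266A), 0.11 (empty vector with WT) and 0.26 (F266A with WT) between lines. Whether replicate numbers 1 and 2 pair the samples cannot be told from these values, and the main fits did not pair them. With the replicate number as a block, 3 hairpins were called in IPs against inputs, 1 (Mir294, -1.12) between F266A and empty vector IPs and 0 in the other comparisons, the same counts as without it. Over all genes the block took the calls between F266A and empty vector IPs from 445 to 607. Calls between WT and F266A IPs went from 114 to 154, and those in IPs against inputs from 6297 to 6550. Few reads limit every member but Mir292.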
